A study of Mus musculus with 8 samples.

Results

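Acetylation of histone H3 at lysine 27 (H3K27ac) was examined around Dusp5 and Dusp6, the genes of a pair of phosphatases that remove phosphate from the MAP kinase ERK. The material was 266-6, a mouse pancreatic acinar cell line. The Dusp5 window, with the stretch upstream of the gene, ran over 190 kb of chromosome 19 from 53450000 to 53640000, and the Dusp6 window over 100 kb of chromosome 10 from 98680000 to 98780000, both in build mm9. All deposited peaks that touched a window were taken and merged over the libraries, which gave 18 of the 33920 merged regions of the series, 16 at Dusp5 and 2 at Dusp6. The windows were chosen by earlier EGF results of these same lists. In those, a stretch of the Dusp5 window had held several regions with peaks in EGF-treated libraries alone. Every value of EGF against vehicle below is therefore a description and carries no test.

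Libraries were made in pairs for 4 groups, one for each combination of siRNA and ligand. In the first group, knockdown cells with EGF, siRNAs against Arid1a were followed by EGF. ARID1A is one of the DNA-binding subunits of SWI/SNF, a remodeller of chromatin. Intact cells with EGF had a non-targeting siRNA in place of these. Knockdown cells with vehicle had the Arid1a siRNAs and bovine serum albumin, and control cells the non-targeting siRNA and bovine serum albumin. The siRNA, at 25 nM, was left for 48 h. Serum was withdrawn overnight in every group before EGF (40 ng/ml) or vehicle was added for 8 h. Knockdown is the word of the labels: no value for Arid1a was looked at here, and a match of the siRNAs to the mouse gene is not stated. Whether the pair of libraries in a group had separate cultures as their source is not stated either, so a p-value speaks of the spread among these libraries alone, and that spread may be technical. Peak lists held 22030 to 28281 peaks over 33.9 to 48.7 Mb. The first control library, with 34.3 Mb, was as short as the EGF-treated libraries, with 33.9 to 36.8 Mb, while the other vehicle libraries covered 46.3 to 48.7 Mb. Read depth is unknown, so no counting interval is given. Without an mm9 annotation, marker genes of acinar cells and other genes of the ERK pathway were not analysed here.

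EGF binds the EGF receptor, which signals through Ras, Raf and MEK to ERK. Active ERK phosphorylates transcription factors, and among the genes it turns on are those of its own inhibitors. DUSP5 acts on ERK in the nucleus and DUSP6, also called MKP-3, in the cytoplasm, so both are known as negative feedback regulators of the pathway. H3K27ac is laid down by the acetyltransferases p300 and CBP and marks active promoters and enhancers. In RefSeq's gene order (build GRCm38.p6) the genes before Dusp5 are Smndc1, which encodes a splicing factor, and the long noncoding RNA genes Mirt1, 4833407H14Rik and Gm30826. Before Dusp6 lie Poc1b, Galnt4 and the long noncoding RNA genes Gm34574 and Gm34777. Start sites were not placed on the mm9 peaks, so no region below is tied to a start site.

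The promoters of the 2 genes are shown because they differ in the CArG box, marked in capitals. These are the 250 bases before the RefSeq start of each gene in build GRCm38.p6, on the plus strand, at chr19:53528895-53529144 for Dusp5 and chr10:99262981-99263230 for Dusp6. Those positions belong to another build than the peaks and are not to be laid over them. The CArG box is the site that serum response factor is known to bind in genes that respond to growth factors.

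Dusp5: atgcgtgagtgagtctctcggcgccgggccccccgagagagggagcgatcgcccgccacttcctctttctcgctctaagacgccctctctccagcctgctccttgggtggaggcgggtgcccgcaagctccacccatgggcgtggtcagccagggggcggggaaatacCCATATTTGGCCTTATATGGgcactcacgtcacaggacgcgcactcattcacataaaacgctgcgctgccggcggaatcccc

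Dusp6: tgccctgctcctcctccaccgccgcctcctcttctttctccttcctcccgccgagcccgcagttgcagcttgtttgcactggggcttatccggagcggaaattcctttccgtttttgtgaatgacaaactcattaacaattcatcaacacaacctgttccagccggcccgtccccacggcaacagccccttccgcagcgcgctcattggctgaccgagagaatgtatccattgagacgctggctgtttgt

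The Dusp5 sequence held 2 CArG boxes end to end, from 82 to 63 bases before the start, and the Dusp6 sequence held 0. Of 27025 mouse promoters of this length, 378 (1.40%) held at least 1 CArG box on either strand, and 5 (0.0185%) held 2 or more. Neither sequence held TGANTCA, TGACGTCA or CCGGAA on either strand, 3 motifs that 6.87%, 1.62% and 12.2% of the same promoters hold. The motifs were chosen with the 2 sequences in view, and a match is a description of the letters and not of binding.

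Peaks covered more of the Dusp5 window in EGF-treated than in vehicle libraries. The window had 16470 and 16532 bp under peaks in knockdown cells with EGF, 18725 and 18773 bp in intact cells with EGF, 11800 and 12424 bp in knockdown cells with vehicle, and 9048 and 12006 bp in control cells. All 4 EGF-treated libraries lay above all 4 vehicle libraries, with means of 17625 ± 1298 bp and 11319.5 ± 1536 bp (SD, n = 4 each), a ratio of 1.56. As a share of everything a library covered, the window took 0.0449% to 0.0552% with EGF and 0.0254% to 0.0264% with vehicle, a ratio of 1.96. The first control library, whose list was as short as those with EGF, was the lowest of all in bp and the highest of the vehicle libraries in share. A larger share of cells with the mark and more of it per cell cannot be told apart in such bulk material.

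**Figure D1:**
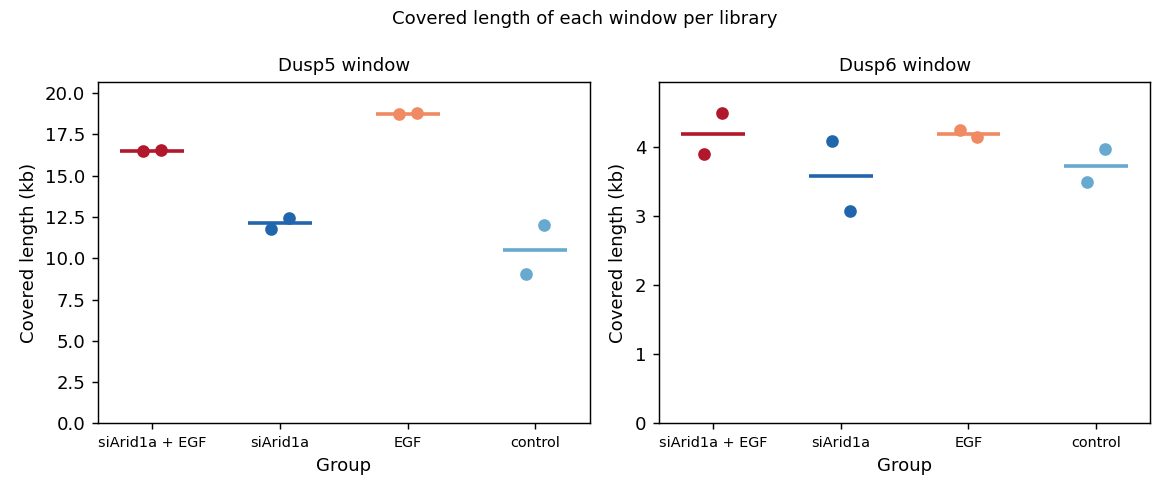
Covered length (kb, vertical axis) of the Dusp5 window (left) and the Dusp6 window (right) in each group, with points for libraries and bars for group means. At Dusp5 all EGF-treated libraries, from 16470 bp up, lie above all vehicle libraries, which reach 12424 bp, while at Dusp6 the 2 sides overlap.

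Numbered 1 to 16 along the chromosome, the Dusp5 regions fell into those that every library held and those that came and went. Peaks were present in 13 and 15 of the 16 regions in EGF-treated knockdown libraries, in 14 and 13 in EGF-treated intact libraries, in 8 and 9 in knockdown libraries with vehicle, and in 7 and 8 in control libraries. Regions 1, 6, 9, 10, 11, 15 and 16 had a peak in all 8 libraries. Regions 4 and 8 had one in 1 library each, the second EGF-treated knockdown library with 226 bp and the first EGF-treated intact library with 815 bp, and were not tested. The other 14 had a peak in at least 2 libraries and entered the fits described below.

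**Figure D2:**
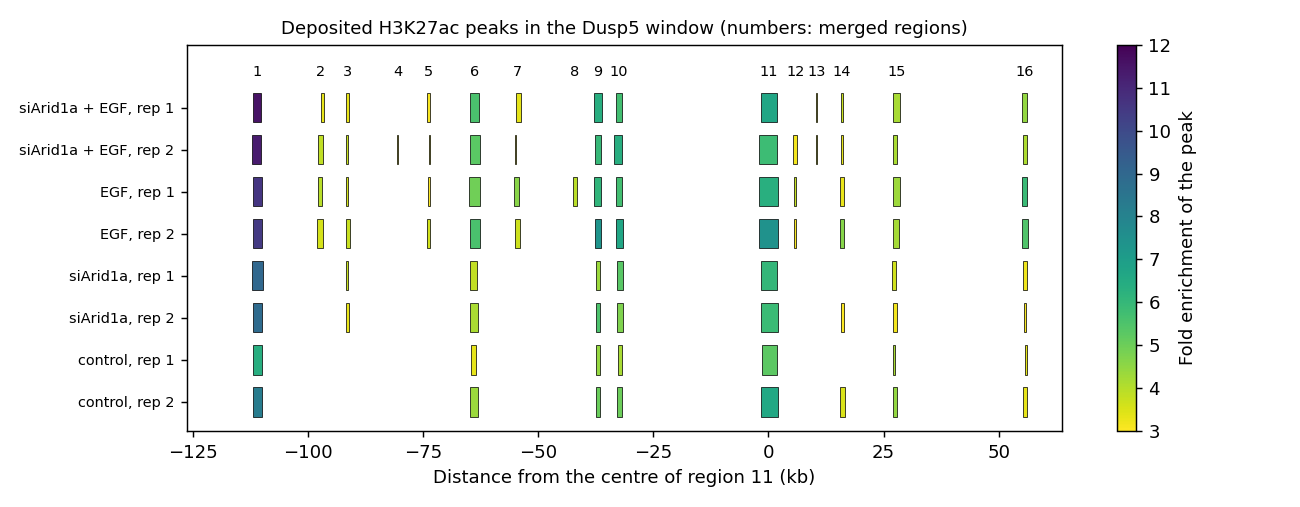
Every deposited peak of the Dusp5 window in the 8 libraries (rows), with the distance from the centre of region 11 in kb on the horizontal axis and the authors' fold enrichment as colour. Regions 2, 5 and 7 have a peak in the 4 EGF-treated libraries and in no vehicle library, and regions 1, 6, 9, 10, 11, 15 and 16 in all.

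Regions 2, 5 and 7 had a peak in all 4 EGF-treated libraries and in none of the 4 vehicle libraries. They are spread over 44.5 kb, from 53478108 to 53522572, and are the regions on which the window was selected. Such gains over both Arid1a states numbered 137, or 0.487% of the 28146 regions that 2 libraries or more held, and losses of the same kind, of which the windows held 0, made up 1.94%. Since the choice of the window used this contrast, nothing is read from the shares.

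Region 2 (chr19:53478108-53479609) was covered over 487 and 922 bp in knockdown cells with EGF and 831 and 1284 bp in intact cells with EGF. The second of these EGF-treated libraries was the wider in both states. Region 5 (chr19:53502087-53502825) had 644 and 233 bp in knockdown cells with EGF and 564 and 642 bp in intact cells with EGF. Its narrow value came from the second knockdown library with EGF alone. In region 7 (chr19:53521019-53522572) the values were 1106 and 334 bp in knockdown cells with EGF and 957 and 1067 bp in intact cells with EGF. The same library was again the narrow one.

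These peaks were weak. Fold enrichment, the authors' ratio of a peak over the caller's background in its own library, was 3.05 to 4.60 over the 12 peaks of regions 2, 5 and 7. Their −log10 q was 1.08 to 3.30, where the lowest of any deposited peak is 1.0, and by fold they stood between the 0.121 and 49.5 percentile of their own lists. With peaks scoring above 40, the median over all lists, 0 such gains were left in the windows. No peak in a vehicle library therefore means that the caller's limit was not reached, not that the mark was absent.

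Counted within each state, knockdown cells with EGF gained 4 of the 14 tested Dusp5 regions over knockdown cells with vehicle (numbers 2, 5, 7 and 13), against a background of 1.20% of all regions. Intact cells with EGF gained 5 over control cells (numbers 2, 3, 5, 7 and 12), against 2.41%. Region 12 (chr19:53581687-53582438) had 0 and 752 bp in knockdown cells with EGF, 495 and 435 bp in intact cells with EGF, and no peak in a vehicle library. It missed the rule over both states by the first EGF-treated knockdown library. Region 14 (chr19:53591748-53592798) had a peak in all 4 EGF-treated libraries, over 442 to 802 bp, and in 1 of 2 libraries of each vehicle group, over 495 bp in knockdown cells with vehicle and 1051 bp in control cells. Vehicle libraries thus reached both the highest and the lowest length there. Region 14 was chosen after its values were seen.

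**Figure D3:**
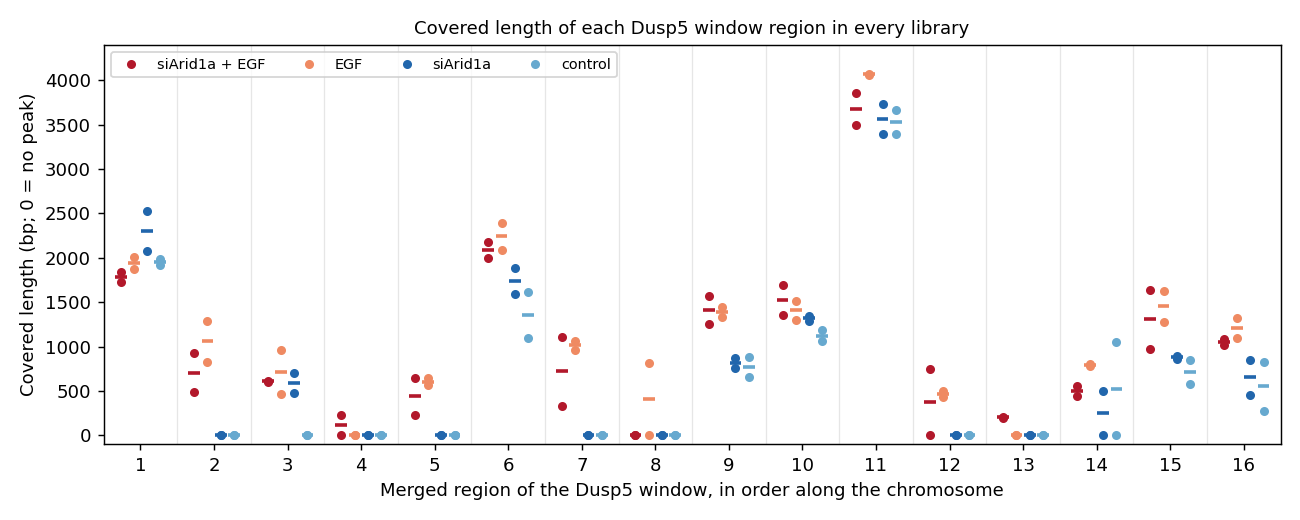
Covered length in bp (vertical axis, 0 where there is no peak) of the 16 regions of the Dusp5 window, with points for libraries and bars for the means of the 4 groups. In regions 6, 9, 15 and 16 every EGF-treated library is covered further than every vehicle library, and in regions 2, 5 and 7 no vehicle library has a peak.

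Regions that all libraries held were wider with EGF in several cases, which were singled out after their values were seen. Covered length did not overlap between the 4 EGF-treated and the 4 vehicle libraries in 7 of the 14 tested Dusp5 regions, all longer with EGF, namely 2, 5, 6, 7, 9, 15 and 16. Over all regions 2.33% were longer with EGF in this sense and 14.0% shorter, so the common direction in these lists was the opposite one. The EGF contrast chose the window, so this count is no independent support either.

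Region 9 (chr19:53538431-53540004) was covered over 1574 and 1257 bp in knockdown cells with EGF, 1449 and 1328 bp in intact cells with EGF, 761 and 876 bp in knockdown cells with vehicle, and 660 and 886 bp in control cells. The means were 1402 ± 139 bp with EGF and 795.75 ± 107 bp with vehicle (SD, n = 4 each), a ratio of 1.76. Its fold enrichment was 6.34 and 5.99 in knockdown cells with EGF, 6.12 and 7.36 in intact cells with EGF, 4.34 and 5.55 in knockdown cells with vehicle, and 4.42 and 5.05 in control cells. Length and fold thus both stood higher in every EGF-treated library.

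Region 6 (chr19:53511196-53513588) lies among the gained regions and had 2164 ± 168 bp with EGF and 1548 ± 327 bp with vehicle (SD, n = 4 each). Its fold was 4.96 to 5.58 with EGF and 3.32 to 4.35 with vehicle. Region 15 (chr19:53603195-53604861) had 1378.5 ± 316 bp with EGF and 797.75 ± 149 bp with vehicle (SD, n = 4 each). Here the length alone was parted: fold was 4.14 to 4.33 with EGF and 3.17 to 4.44 with vehicle.

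Region 1 (chr19:53463989-53466511), at the far end of the window from region 16, was parted by fold and not by length. It was covered over 1722 and 1844 bp in knockdown cells with EGF, 1872 and 2004 bp in intact cells with EGF, 2523 and 2080 bp in knockdown cells with vehicle, and 1981 and 1917 bp in control cells, so its length overlapped between EGF and vehicle. Its fold was 11.6 and 11.3 in knockdown cells with EGF, 10.6 and 10.5 in intact cells with EGF, 8.98 and 8.90 in knockdown cells with vehicle, and 6.36 and 8.25 in control cells. Fold was higher in every EGF-treated library.

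Fold depends on the library it comes from, so each library's peaks were also ranked among the same 16607 regions, those with a peak in all 8 libraries. Region 1 stood between the 98.5 and 99.5 percentile with EGF and between the 77.2 and 83.3 percentile with vehicle. Region 6 stood between 46.4 and 53.0 with EGF and between 1.57 and 15 with vehicle. Of the 7 Dusp5 regions in this set, 5 ranked higher in all EGF-treated than in all vehicle libraries (numbers 1, 6, 9, 10 and 16) and 0 ranked lower, against backgrounds of 17.0% and 16.9% of the 16607.

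Region 11 (chr19:53574203-53578311), the widest of the window, had the ratio nearest to 1 among the regions that all libraries held. It was covered over 3498 and 3854 bp in knockdown cells with EGF, 4060 and 4070 bp in intact cells with EGF, 3389 and 3735 bp in knockdown cells with vehicle, and 3398 and 3664 bp in control cells. Fold was 5.84 to 7.44 with EGF and 5.27 to 6.60 with vehicle. Both measures overlapped, and the ratio of mean lengths, EGF over vehicle, was 1.09. Region 10 (chr19:53542754-53544688) had 1300 to 1695 bp with EGF and 1058 to 1349 bp with vehicle, which also overlapped, and was likewise chosen after its values were seen.

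**Figure D4:**
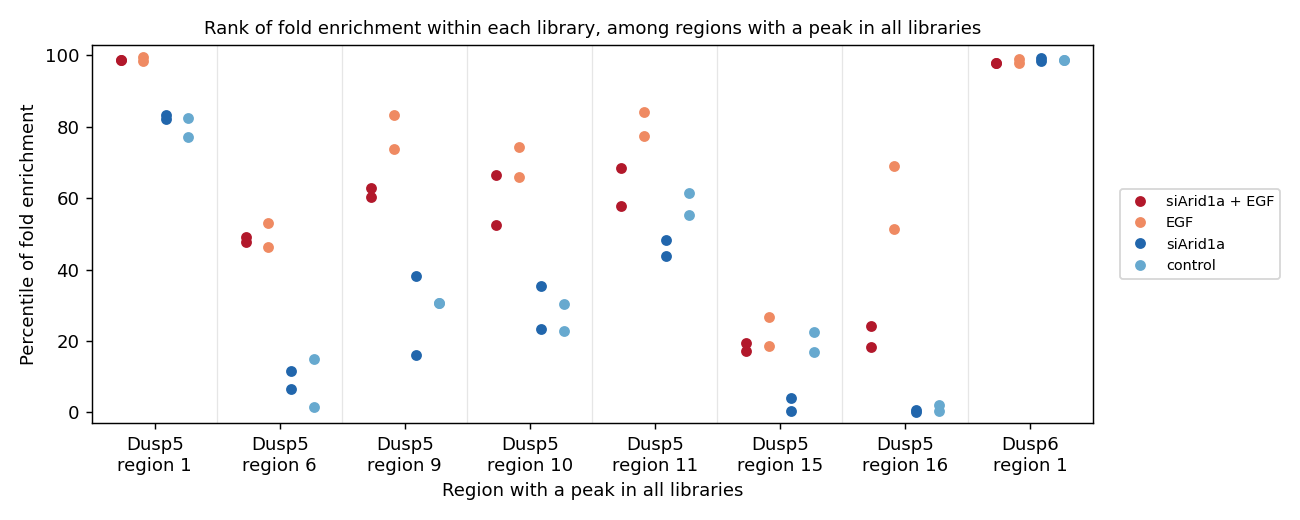
Percentile of fold enrichment within each library (vertical axis), among the 16607 regions with a peak in all 8 libraries, for 7 Dusp5 regions and 1 Dusp6 region, with a point per library and colours for groups. Region 16 ranks from 51.3 to 68.9 in intact cells with EGF, from 18.3 to 24.1 in knockdown cells with EGF and from 0.193 to 2.22 with vehicle, while Dusp6 region 1 stays between 97.8 and 99.2 throughout.

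The Dusp6 window held 1 strong region, present throughout, and 1 weak one. Region 1 of that window (chr10:98723185-98727783) was covered over 3896 and 4492 bp in knockdown cells with EGF, 4246 and 4148 bp in intact cells with EGF, 3835 and 3082 bp in knockdown cells with vehicle, and 2907 and 3970 bp in control cells. The means were 4195.5 ± 247 bp with EGF and 3448.5 ± 532 bp with vehicle (SD, n = 4 each), and the second control library overlapped with EGF-treated ones. Its fold was 11.06 and 10.75 in knockdown cells with EGF, 8.98 and 10.71 in intact cells with EGF, 13.49 and 14.49 in knockdown cells with vehicle, and 10.00 and 12.85 in control cells. The means were 10.4 ± 0.940 with EGF and 12.7 ± 1.93 with vehicle (SD, n = 4 each), again with overlap. By rank the region was among the strongest of every library, between the 97.8 and 99.2 percentile of the 16607.

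Region 2 of the Dusp6 window (chr10:98731185-98731879) had 258 bp in the first knockdown library with vehicle and 595 bp in the first control library, with no peak in an EGF-treated library or in the second libraries of these groups. Over the whole window 3896 and 4492 bp were covered in knockdown cells with EGF, 4246 and 4148 bp in intact cells with EGF, 4093 and 3082 bp in knockdown cells with vehicle, and 3502 and 3970 bp in control cells. EGF and vehicle overlapped in this length. As a share of the library it was 0.0114% to 0.0125% with EGF and 0.00633% to 0.0102% with vehicle. The 2 sides did not overlap in this share. Its divisor, the total covered length, was larger in all vehicle libraries but the first control than in any EGF-treated one, which alone lowers the vehicle shares. How often regions part in share over the series was not counted, so nothing is read from it. Of the 2 Dusp6 regions, 0 were gained by presence, and 0 had all EGF-treated libraries beyond all vehicle libraries in length or, for region 1, in rank. Over all regions 0.487% were gained in both Arid1a states, and 2.33% were longer and 14.0% shorter with EGF. In rank 17.0% stood higher and 16.9% lower. With 2 regions, nothing is read from these counts.

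**Figure D5:**
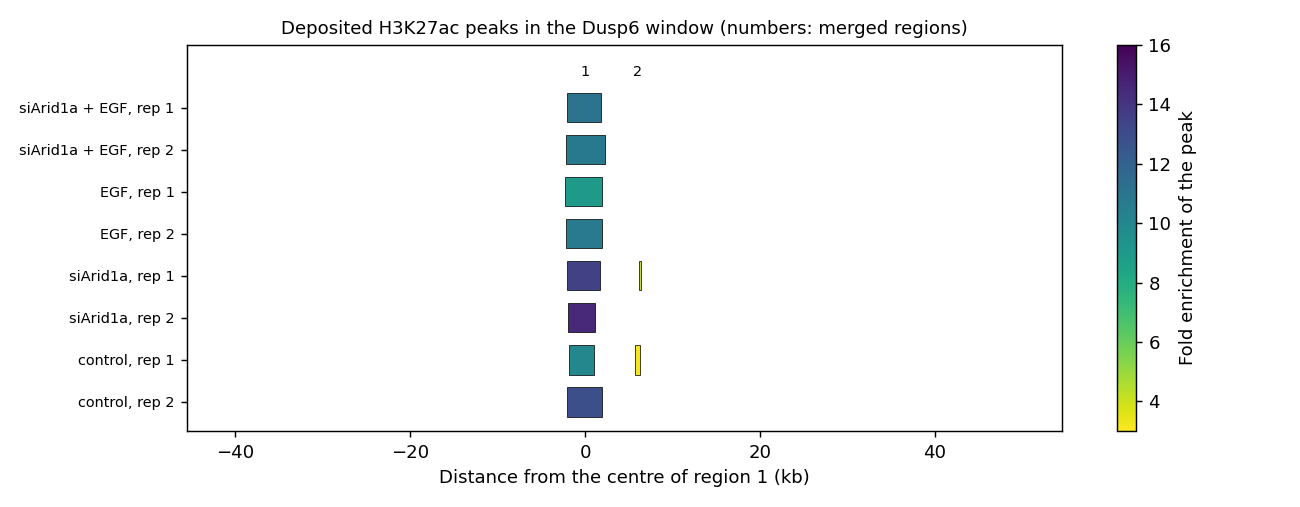
Every deposited peak of the Dusp6 window in the 8 libraries (rows), with the distance from the centre of region 1 in kb on the horizontal axis and the authors' fold enrichment as colour. Region 1 is present in all rows, and region 2 in the first knockdown library with vehicle and the first control library.

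The windows were chosen by EGF results and not by Arid1a knockdown as such. Knockdown was therefore tested with limma on log2(covered bp + 200), fitted over all 28146 regions. Members picked for their EGF pattern in both Arid1a states are not independent of that choice. The difference of the EGF effect between the states, fitted as well, is not independent of it either. No region of either window passed an adjusted p of 0.05. Of the 16 tested members, 0 were called for knockdown under EGF (0.661% of all regions), 0 for knockdown without EGF (1.37%), 0 for the mean of both (0.352%) and 0 for the difference of the EGF effect between the Arid1a states (0% of all regions, that is 0 of 28146). At an unadjusted p under 0.05 limma found 1, 1, 2 and 2 of them, against 10.8%, 12.7%, 17.9% and 8.97% of all regions. These were region 3, region 13 or both. Dusp5 regions 2, 5, 7, 12 and 13 had no peak in either vehicle group. Their knockdown effect without EGF was thus 0 by construction, and they could not be called there. Dusp6 region 2 was in the same position under EGF. Median log2 differences over the members and over all regions were -0.13 and 0 for knockdown under EGF, and 0.01 and 0.18 without EGF. Since such fixed values enter the counts and the medians, nothing is read from either against all regions. A missed threshold does not show that knockdown left these regions alone.

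Region 3 (chr19:53484381-53485339), between 2 of the gained regions, came closest. It was covered over 606 and 610 bp in knockdown cells with EGF, 466 and 959 bp in intact cells with EGF and 477 and 707 bp in knockdown cells with vehicle, while both control libraries lacked it. Every group but the control thus had it, with fold from 3.31 to 3.77. Without EGF it was higher with knockdown by 1.97 ± 0.39 on the log2 scale (SE, 95% confidence interval 1.01 to 2.93, limma adjusted p = 0.0928), against a median of 0.18 over all regions. The size of this value depended on the processing. It was 3.66 with a pseudocount of 50 bp and 0.67 with 1000 bp, and it was 0.88 both with quantile normalization and with lists of equal length. The adjusted p by limma was 0.0341 with 50 bp, and over the alternatives that kept the region it ran from 0.0341 to 0.579. With scores above 40 region 3 dropped out, since its peaks had a −log10 q of only 1.48 to 2.40. Such a gain by presence, knockdown over control, was seen in 1 of the 14 tested Dusp5 regions and in 3.67% of all. For region 3 the limma difference of the EGF effect between the states was -2.09 ± 0.55 on the log2 scale (SE). It rests on the same empty control libraries and is set largely by the pseudocount, -3.79 with 50 bp and -0.74 with 1000 bp. Since the window was also chosen by EGF results, its p is not read.

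Region 13 (chr19:53586518-53586846) had 204 and 200 bp in knockdown cells with EGF, the least that any deposited peak spans being 200 bp, and no peak in the other 6 libraries. It entered the fit through that group alone, and its log2 difference for knockdown under EGF is set by the pseudocount, 1.01 with 200 bp, 2.33 with 50 bp and 0.27 with 1000 bp, so its p is not read. Gains of this kind by presence were 1 of 14 at Dusp5 and 2.43% of all regions.

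Region 16 (chr19:53631290-53632611) differed between the EGF-treated groups by fold more than by length. It was covered over 1082 and 1013 bp in knockdown cells with EGF, 1094 and 1322 bp in intact cells with EGF, 848 and 457 bp in knockdown cells with vehicle, and 274 and 829 bp in control cells. The limma difference for knockdown under EGF was -0.17 ± 0.42 (SE, adjusted p = 1). Its fold was 4.44 and 4.10 in knockdown cells with EGF, 5.89 and 5.49 in intact cells with EGF, 3.23 and 3.10 in knockdown cells with vehicle, and 3.37 and 3.32 in control cells, so that EGF-treated knockdown libraries stood between the other groups. Among peaks scoring above 40, intact cells with EGF alone held the region, with a −log10 q of 5.45 and 4.87, against 3.04 and 2.74 in knockdown cells with EGF. A test on that subset is not read, since the region entered it through the intact cells with EGF alone and every other value was set to 0. Region 16 was singled out after these values were seen.

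For regions 2, 5 and 7 the choice of the window had fixed which groups held a peak, so knockdown without EGF was 0 by that choice. Under EGF their mean covered length was 704.5, 438.5 and 720 bp with knockdown and 1057.5, 603 and 1012 bp without, and limma put the log2 differences at -0.49 ± 0.40, -0.41 ± 0.41 and -0.54 ± 0.48 (SE, adjusted p = 0.808, 0.855 and 0.832). All 3 means were lower with knockdown by about 1 SE, and the libraries of the 2 groups overlapped in each. The choice had also required a peak in every EGF-treated library of both states. A peak lost with knockdown under EGF was thus excluded beforehand, and these p-values are not read.

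At Dusp6 region 1 knockdown shifted the length by -0.0042 ± 0.17 under EGF (SE, 95% confidence interval -0.42 to 0.41) and by 0.02 ± 0.17 without (SE, 95% confidence interval -0.40 to 0.43), each with a limma adjusted p of 1. The EGF effect differed between the states by -0.02 ± 0.24 (SE, limma adjusted p = 1). With quantile normalization the value without EGF turned to -0.16 and the difference between the states to 0.08, so no direction is given.

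Summed over each window, the 4 knockdown libraries had 14306.5 ± 2547 bp at Dusp5 and the 4 intact ones 14638 ± 4898 bp (SD, n = 4 each), with p = 0.971 by a two-sided exact permutation test. At Dusp6 they had 3891 ± 593 bp and 3966.5 ± 330 bp (SD, n = 4 each), with p = 0.800 by the same exact test. Each set of 4 held 2 EGF-treated and 2 vehicle libraries, so these SDs include the EGF split. The smallest p that 4 against 4 allow is 0.0286, and with labels exchanged within EGF states alone the exact p was 0.944 and 0.778. Leaving out either intact library with EGF, or either knockdown library with vehicle, turned the sign at Dusp5. Under EGF the Dusp5 window had 16501 ± 43.8 bp with knockdown and 18749 ± 33.9 bp without, and with vehicle 12112 ± 441 bp and 10527 ± 2092 bp (SD, n = 2 each). EGF-treated knockdown libraries were thus below both EGF-treated intact ones, a split of 2 against 2 that was not tested, while the vehicle groups overlapped. The group means differed in opposite directions with EGF and with vehicle, so the pooled Dusp5 difference averages them out. Its p speaks of neither state alone.

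The regions next to the Dusp5 window did not share its direction. The one before it, 15.2 kb away, had 99 ± 198 bp with EGF and 450.5 ± 204 bp with vehicle, and the one after it, 33.8 kb away, 984.5 ± 391 bp and 1712 ± 430 bp (SD, n = 4 each). Shorter with EGF was also the common direction over all regions (14.0% against 2.33% longer, without overlap), so no edge of a local change is read from them. Next to the Dusp6 window the region before had 497.5 ± 334 bp with EGF and 595 ± 402 bp with vehicle. The region after it, 238 kb away, had 1431 ± 439 bp and 417.5 ± 337 bp (SD, n = 4 each). Outside the windows, the regions whose covered length followed that of the Dusp5 window most closely over the 8 libraries lay on chromosome 13 from 51663838 to 51665771, on chromosome 11 from 42995432 to 43001532 and on chromosome 7 from 135814730 to 135816862. Their Pearson r with the window was 0.991, 0.983 and 0.980, and 38 regions were above 0.95. The first had 1551 ± 297 bp with EGF and 383.5 ± 276 bp with vehicle (SD, n = 4 each). For Dusp6 the closest lay on chromosome 9 from 63639013 to 63639817, with an r of 0.945. These are descriptions over 8 libraries that share the EGF split, picked as the highest over all tested regions.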

How the data were processed

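The authors deposited 1 list of peaks per library, with 9 columns, positions in build mm9 and no header, so replicates were not pooled. The submitters' processing notes name MACS2 (2.1.1.20160309.0), deepTools (3.0.2), SAMtools and Bowtie2 (2.3.4.2) with no role or order. Caller settings and the use of an input library are not given in the sources used. In the deposited lists the score equals 10 times −log10 q cut to a whole number, fold is the peak's ratio to background as the caller estimated it, and −log10 p stands beside it. A longer list can hold wider peaks, so covered length depends on list length too.

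Overlapping peaks (1 bp or more) of the 8 lists were merged, and covered bp were summed per region and library. Regions that 2 or more libraries held entered limma 3.58.1 (R 4.3.3, empirical Bayes with a trend) with 4 group means on log2(covered bp + 200), which understates changes of short peaks. Benjamini-Hochberg adjustment of p-values ran over all 28146 of them. Window totals were compared by exact permutation of the 70 assignments. The merging and the limma fit were tested on simulated data. For limma, shifts were planted in regions of middle length, with the same noise for every region, and the mean knockdown effect was checked. Regions lacking a peak in whole groups were not covered by that simulation. The rest was done in Python 3.11.15 (matplotlib 3.10.9, SciPy 1.17.1, NumPy 2.4.6, pandas 2.3.3). Promoter sequences are RefSeq's, and both gene symbols matched. Members, windows and lists were chosen with earlier results of these data known. The regions given in full were the 2 of each window with the highest mean covered length and those with a peak in both libraries of one group and neither of another, and others are marked as chosen after their values were seen.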

Additional observations from a re-analysis of the deposited data

Results flagged for a closer look

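Of the values checked for 1 library far from the others of its side, in 82 sets of 4, 3 stood apart, and such a check marks about 1 in 20 sets by chance. In Dusp5 region 15 the first control library, with 576 bp, lay apart from the other vehicle libraries at 853 to 897 bp, a gap of 0.863 of their range. In the same region the first EGF-treated knockdown library, with 1635 bp, lay apart from the other knockdown libraries at 865 to 976 bp, a gap of 0.856 of the range. That set mixed EGF-treated and vehicle libraries, so the chance rate does not apply to it. At Dusp6 region 1 the fold of the first EGF-treated intact library, 8.98, lay below the other EGF-treated libraries at 10.71 to 11.06, a gap of 0.831 of the range. In Dusp5 region 1 every EGF-treated knockdown library was shorter than every EGF-treated intact one, and every knockdown library with vehicle longer than every control one, so the knockdown effect under EGF less that without it was -507.5 bp. Its difference by limma was -0.32 ± 0.16 (SE, adjusted p = 0.686), the same quantity as the difference of the EGF effect between the states.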

How the results depend on the processing

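Alternatives were other pseudocounts, no filter, quantile normalization, lists of equal length (22030 peaks), scores above 40, gaps of up to 1000 bp merged, 50% of a region covered, each library left out in turn, and a replicate block. Of 193 recomputed values, 169 were classed as unchanged in direction and side of the threshold or, for counts, as not moved. A gain count of 4 in place of 3 was classed so too. Many of the values could not change, such as totals under another permutation scheme or limma differences without a library of an uninvolved group. The tally is therefore no measure of robustness. The 3 gains in both states became 0 with scores above 40, whose peaks in these regions all score lower, and 0 where 50% of a region had to be covered, and were 3 to 4 without single libraries. Calls by limma became 1 for knockdown without EGF at a pseudocount of 50 bp (region 3) and, with scores above 40, 1 each for knockdown under EGF, the mean and the difference of the EGF effect, and were 0 under all others, leaving out each library included. The 3 calls with scores above 40 are all region 16, which that filter left in the intact libraries with EGF alone, so they are one contrast of that group with zeros and are not read as calls. Quantile normalization moved the median log2 of knockdown without EGF over all regions from 0.18 to -0.03. It turned Dusp6 region 1 to -0.16 for knockdown without EGF and 0.080 for the difference of the EGF effect, and without single libraries these ran from -0.20 to 0.23 and from -0.23 to 0.19, and from -0.10 to 0.094 for knockdown under EGF. Knockdown less intact covered length, -331.5 bp at Dusp5 and -75.75 bp at Dusp6, ran from -2195 to 1047 bp and from -276 to 194 bp without single libraries, and at Dusp6 was 73 bp with lists of equal length and 8.5 bp with scores above 40. The sign of these pooled differences is therefore not settled, and the cause was not tested. Over all regions, limma calls were 385 for knockdown without EGF (0 to 2956 under the alternatives), 186 under EGF (0 to 630), 99 for the mean (0 to 2772) and 0 for the difference of the EGF effect (0 to 1134), each highest count arising without the second control library. Replicate numbers paired nothing (correlations of replicate differences between groups from -0.01 to 0.03). With the replicate block the windows had 0 limma calls in each comparison. Exact permutation within pairs leaves the differences of -331.5 and -75.75 bp as they are by construction, so their return shows nothing. Only the p-value can change there, and pairs this few allow no small one, so no conclusion is drawn from that scheme.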
